A study of Mus musculus with 9 samples.

Results

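Collagens are the main structural proteins of the extracellular matrix, and their genes are named by collagen type and chain (Col3a1 for the alpha 1 chain of type III). Every symbol made of Col, a number, the letter a and a number was taken from the deposited count files, which gave 43 of 22609 genes. Of these, 41 had enough reads to be tested, among 16091 tested genes in all. The other 2 were Col10a1 and Col6a4. The RNA came from 3 tissues of male mice of strain C57, aged 8 to 12 weeks: dorsal root ganglia (DRG) of levels L3 to L5, where the sensory neurons of the hind limb have their cell bodies, lumbar spinal cord (cord in the following), and hind paw skin taken as punches. All mice had been given paclitaxel, a microtubule-binding cancer drug, in 2 intraperitoneal injections of 2 mg/kg. They had also been given an antagonist of the lymphotoxin-beta receptor, at 15 µg per site, both into the paw and intrathecally, on days 1 and 4 by the sample titles, whereas the series text places it between the paclitaxel injections and the day after them. Tissues were taken 6 days after the last paclitaxel injection, with 3 libraries per tissue, and control tissues are not analysed here. All 9 libraries therefore share both agents, and the only comparison is between tissues of treated mice. Whether libraries of a tissue came from separate mice is not stated in the labels, so p-values reflect the spread between these libraries, which may be technical.

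A collagen molecule is a triple helix of 3 chains, which may be products of the same gene or of different genes of a type. Fibrillar collagens form the banded fibrils of dermis, nerve sheaths and meninges, type IV forms the network of basement membranes around vessels, Schwann cells and epithelia, and FACIT collagens (fibril-associated collagens with interrupted triple helices) sit on the surface of fibrils. Peripheral ganglia and skin contain fibroblasts and abundant basement membrane, whereas in the spinal cord these are largely confined to meninges and vessels.

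Promoters are shown for 5 collagen genes because their levels differed between tissues in different ways: the neighbours Col4a1 and Col4a2, which are transcribed away from each other and were both highest in DRG, Col5a3 (DRG), Col11a1 (cord) and Col17a1 (paw). The windows are RefSeq promoters on GRCm38.p6, from 250 bases before to 50 bases after the start of each gene, 5′ to 3′ on the strand of the gene. Capitals mark matches to 3 motifs on either strand, none overlapping another in these windows. The first was the box named for its letters TATAAA, which reads as TTTATA from the other side. The next was the box with the letters CCAAT, which reads as ATTGG from the other side. The last was the GC box, with the letters GGGCGG, which reads as CCGCCC from the other side. Col4a1 lies at chr8:11312777-11313076 (- strand), Col4a2 at chr8:11312555-11312854 (+ strand), Col5a3 at chr9:20815018-20815317 (- strand), Col11a1 at chr3:114030290-114030589 (+ strand) and Col17a1 at chr19:47691993-47692292 (- strand).
Col4a1: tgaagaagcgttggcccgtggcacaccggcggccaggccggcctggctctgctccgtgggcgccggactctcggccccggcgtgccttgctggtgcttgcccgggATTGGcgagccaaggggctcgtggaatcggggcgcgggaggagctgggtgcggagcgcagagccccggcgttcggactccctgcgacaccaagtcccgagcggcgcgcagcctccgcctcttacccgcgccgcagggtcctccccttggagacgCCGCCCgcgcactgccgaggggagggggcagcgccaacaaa
Col4a2: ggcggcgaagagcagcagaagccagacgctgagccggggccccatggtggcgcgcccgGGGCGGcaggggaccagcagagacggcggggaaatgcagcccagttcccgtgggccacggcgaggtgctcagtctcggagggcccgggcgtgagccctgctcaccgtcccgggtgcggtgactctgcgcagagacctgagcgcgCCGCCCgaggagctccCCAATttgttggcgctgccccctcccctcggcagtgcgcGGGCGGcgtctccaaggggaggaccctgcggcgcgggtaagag
Col5a3: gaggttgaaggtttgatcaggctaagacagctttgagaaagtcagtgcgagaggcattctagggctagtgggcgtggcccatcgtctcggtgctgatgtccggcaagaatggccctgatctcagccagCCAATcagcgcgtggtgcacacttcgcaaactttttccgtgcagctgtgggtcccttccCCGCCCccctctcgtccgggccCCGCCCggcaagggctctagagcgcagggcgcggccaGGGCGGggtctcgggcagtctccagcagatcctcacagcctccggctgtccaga
Col11a1: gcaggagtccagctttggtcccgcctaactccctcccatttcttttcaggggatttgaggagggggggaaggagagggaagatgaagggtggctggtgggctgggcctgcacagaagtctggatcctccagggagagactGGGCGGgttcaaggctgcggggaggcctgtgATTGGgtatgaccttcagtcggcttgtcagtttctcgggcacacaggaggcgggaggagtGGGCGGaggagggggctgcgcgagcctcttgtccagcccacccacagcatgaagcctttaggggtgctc
Col17a1: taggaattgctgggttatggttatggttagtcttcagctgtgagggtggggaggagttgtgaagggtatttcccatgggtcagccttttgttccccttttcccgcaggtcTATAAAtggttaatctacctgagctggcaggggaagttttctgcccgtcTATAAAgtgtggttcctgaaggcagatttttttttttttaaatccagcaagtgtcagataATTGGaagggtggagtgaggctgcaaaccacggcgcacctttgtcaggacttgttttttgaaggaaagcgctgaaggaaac
The windows of Col4a1 and Col4a2 share 78 bases, and the GC box at +10 of Col4a1 is the one at +8 of Col4a2 read from the other strand. Of these 5 windows, only that of Col17a1 held TATAAA, at -140 and at -91 from the start, and only it held no GC box. Promoter windows were found for 35 of the 43 collagen genes, 38 windows in all. GGGCGG was present in 23 of the 38 (60.5%), against 35.7% of all 32851 windows. CCAAT was present in 13 (34.2%, against 37.4% of all windows) and TATAAA in 5 (13.2%, against 13.6%). A match describes the letters of a window and is not evidence of binding.

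Reads assigned to genes numbered 15537545 to 23229724 per library, and 3 reads, the floor used here, corresponded to 0.134 to 0.185 CPM, the read counts scaled to library sizes that were adjusted by TMM. The summed CPM of 6 sensory neuron markers was 4416 to 5217 in DRG, 84.2 to 98.9 in cord and 6.05 to 7.9 in paw. That of 6 central neuron and glia markers was 2650 to 3110 in cord and 7.41 to 14.7 elsewhere, and that of 6 keratinocyte markers 5788 to 6837 in paw and 28.8 to 149 elsewhere, so each tissue carried the markers of its label. Libraries of a tissue differed in collagen content. DRG 1 was the highest DRG library for 31 of the 41 tested collagen genes (75.6%, against 28.1% of all tested genes), with a median log2 difference from the mean of the other DRG libraries of 0.40. Cord 3 was likewise highest for 31 of 41 (75.6%, against 34.7% of all genes), with a median difference of 0.64, and paw 2 for 25 of 41 (61%, against 26.7%), with a median of 0.23. The sums of fibroblast, meninges, and Schwann and satellite glia markers were also higher in DRG 1 and cord 3. The sums of the sensory neuron list and of the central neuron and glia list went the other way. The sensory neuron sum was lowest in DRG 1, at 4416 CPM against 5035 and 5217 in DRG 2 and 3. The central neuron and glia sum was lowest in cord 3, at 2650 CPM against 3099 and 3110 in cord 1 and 2. Most of that sum came from the glial genes Gfap and Mobp, at means of 1000 and 932 CPM in cord. Single members differed, with Scn10a lowest in DRG 2 (789 CPM) and Aqp4 lowest in cord 2 (392 CPM). In paw the fibroblast sums were 1922, 2203 and 2276 CPM and the meninges sums 19.6, 25.6 and 28.2 CPM, highest in paw 3 and not in paw 2. The 7 Schwann and satellite glia markers summed to 20260 CPM in DRG 1 against 15193 and 15363 in DRG 2 and 3, and to 6365 in cord 3 against 2362 and 2540 in cord 1 and 2. The 6 fibroblast markers summed to 1515 CPM in DRG 1 against 1089 and 1093, and to 614 in cord 3 against 245 and 214. Meninges markers summed to 77.9 CPM in DRG 1 against 44.7 and 46.3, and to 60.0 in cord 3 against 27.1 and 30.3. Skeletal muscle markers were at 606 and 943 CPM in DRG 1 and 2 against 31.6 in DRG 3, and marrow markers at 367 CPM in cord 1 against 71.6 and 86.2. In paw the skeletal muscle markers summed to 13312 to 17005 CPM, above the keratinocyte sums, so the skin punches also carried muscle RNA. Of the markers in these lists, only Slc22a6, of the meninges list, was at 0 in a tissue, in paw. The part of these cells in the collagen levels was not tested, and in bulk tissue fewer cells of a type and less RNA per cell cannot be told apart.

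**Figure D1:**
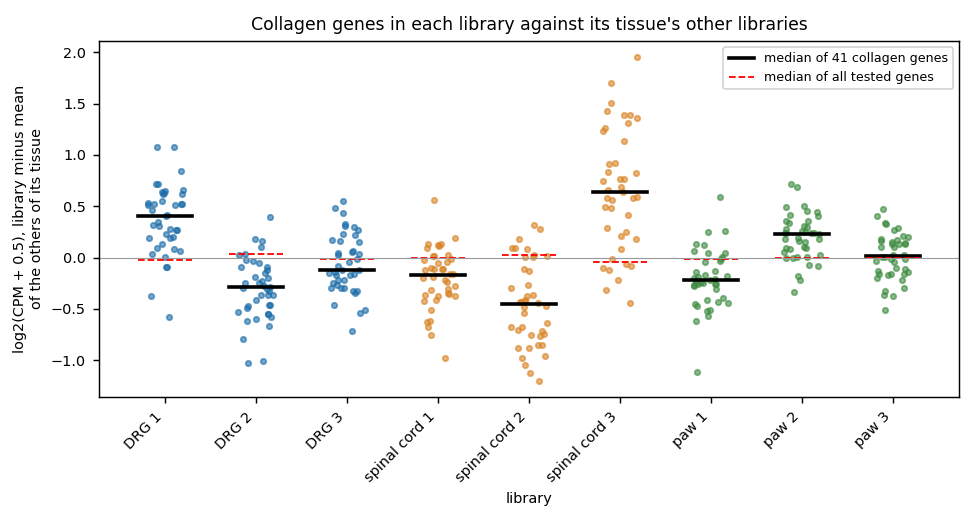
Difference of each of the 41 tested collagen genes from the mean of the other libraries of its tissue, in each library (y axis, log2 of CPM plus 0.5). Points are genes, black bars their medians and red dashes the medians of all tested genes. Most genes lie above 0 in DRG 1, cord 3 and paw 2, with medians of 0.40, 0.64 and 0.23.

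Collagen reads took the largest share of gene reads in paw and the smallest in cord. They were 0.533%, 0.701% and 0.603% of gene reads in paw, 0.517%, 0.355% and 0.38% in DRG, and 0.128%, 0.107% and 0.224% in cord. No cord library reached the lowest DRG library, and paw 1 and DRG 1 were nearly level. As a share of the TMM library size, paw 1 was at 0.535% and DRG 1 at 0.537%. Fibrillar collagens were the largest class in every tissue, at 64.6 ± 2.61% of collagen reads in paw, 56.1 ± 1.31% in DRG and 45.2 ± 2.69% in cord (SD, n = 3). Type IV took 19.5 ± 1.08% in DRG, 22.6 ± 1.4% in cord and 7.16 ± 0.667% in paw. FACIT collagens were 13.3 ± 3.75% in cord, 6.44 ± 0.703% in DRG and 3.54 ± 0.177% in paw. Membrane collagens were 11.8 ± 1.65% in paw, against 4.18 ± 0.467% in DRG and 5.84 ± 0.365% in cord. Shares of a total depend on each other, and no test was made on them.

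**Figure D2:**
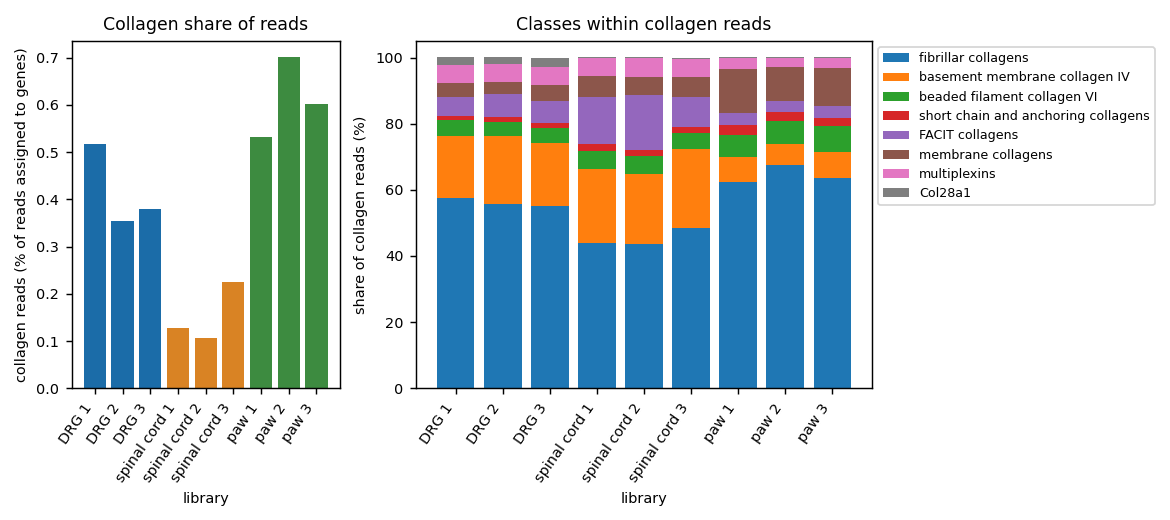
Share of collagen in the gene reads of each library (percent) and make-up of the collagen reads by class (percent of collagen reads). Paw has the largest collagen share, and type IV and FACIT collagens take a smaller part of it in paw than in DRG or cord.

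In edgeR's quasi-likelihood test a gene was called where its Benjamini-Hochberg adjusted p over all tested genes was under 0.05, and fold changes are given as log2 ± standard error. Against cord, DRG was called higher for 27 of the 41 tested collagen genes (65.9%), where 29% of all tested genes were called higher, and lower for 9 (22%), where 30.6% of all were. The median log2 fold change of the collagen genes was 1.03, against -0.02 for all tested genes. Paw against DRG gave 16 higher (39%, against 39.7% of all genes) and 17 lower (41.5%, against 40.8%), shares near those of all genes, with a median of 0.24 against -0.02. Paw against cord gave 22 higher (53.7%, against 39.9%) and 12 lower (29.3%, against 41.7%), with a median of 1.31 against -0.03. The filter keeps a gene with enough reads in any tissue, so a gene expressed in only 1 tissue passes because it differs. The comparisons share tissues and are not independent. With cord 3 left out, the count higher in paw than in cord was 27. In further runs DRG 1 and 2 (the DRG libraries with the higher muscle marker sums), or cord 1 and 3, were left out. Only 1 library of that tissue then remained and the spread came from the other tissues, so only fold changes are given for these runs.

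**Figure D3:**
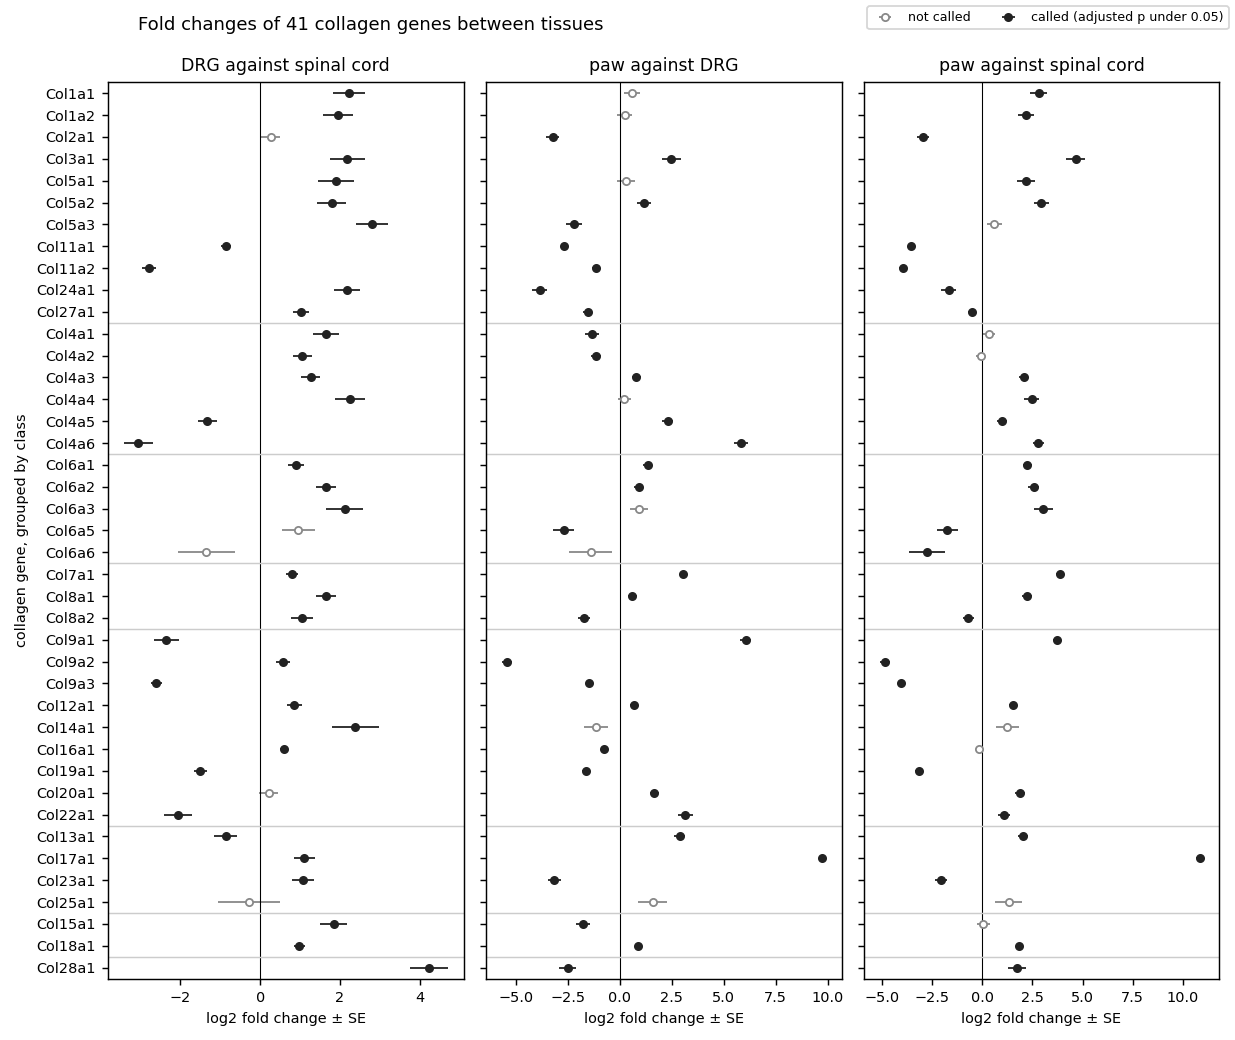
Log2 fold changes ± standard error of the 41 tested collagen genes in the 3 comparisons, grouped by class. Filled points are called (adjusted p under 0.05), 27 higher and 9 lower in DRG against cord, and Col17a1 at 9.73 and 10.83 has the largest fold in both paw comparisons.

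Of the 41, 16 were called higher in paw than in both other tissues (39%, against 32.4% of all tested genes). These were Col3a1, Col4a3, Col4a5, Col4a6, Col5a2, Col6a1, Col6a2, Col7a1, Col8a1, Col9a1, Col12a1, Col13a1, Col17a1, Col18a1, Col20a1 and Col22a1. DRG was called higher than both others for 11 (26.8%, against 15.9%), namely Col4a1, Col4a2, Col5a3, Col8a2, Col9a2, Col15a1, Col16a1, Col23a1, Col24a1, Col27a1 and Col28a1. Cord was called higher than both others for 4 (9.76%, against 19.5%), Col9a3, Col11a1, Col11a2 and Col19a1. The other 10 had no tissue called above both others.

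**Figure D4:**
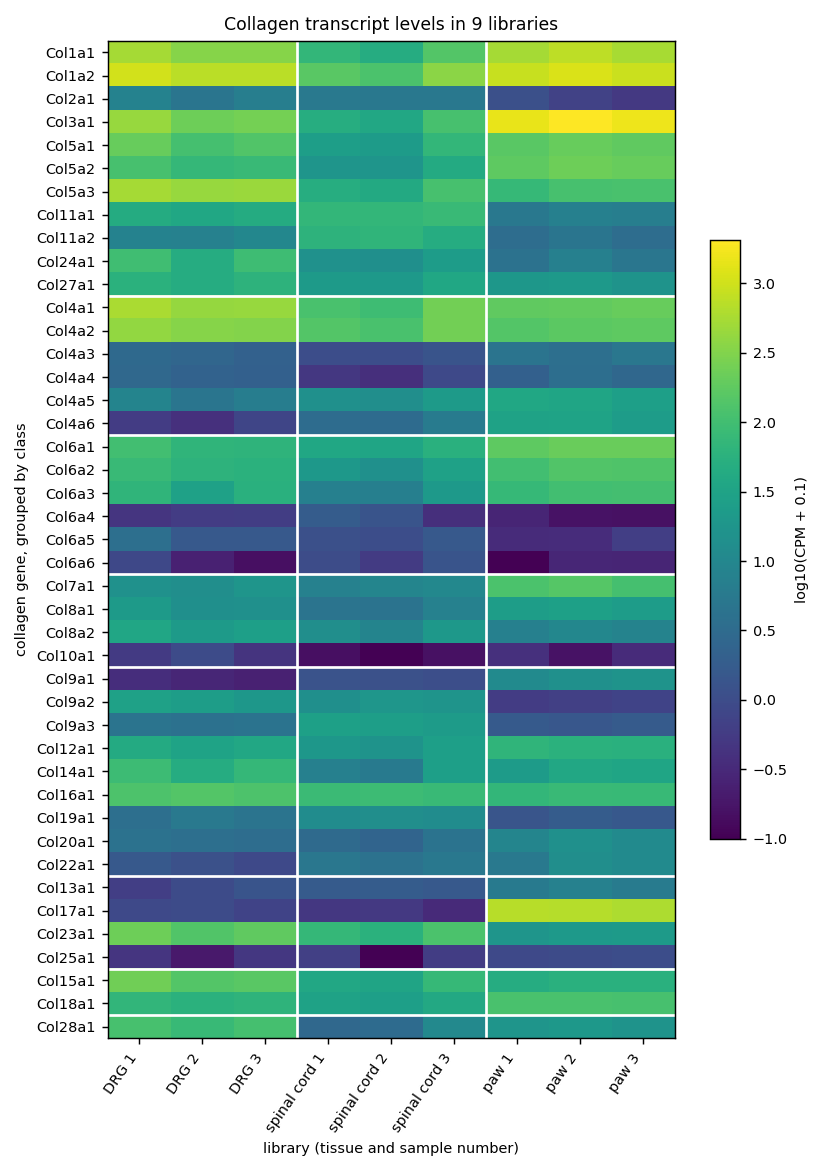
Heat map of the level of each of the 43 collagen genes (rows, grouped by class) in each of the 9 libraries (columns), with colour giving log10 of CPM plus 0.1. Col17a1 is bright in the 3 paw libraries alone, at 614 to 703 CPM, and Col5a3 is brightest in the 3 DRG libraries, at 445 to 539 CPM.

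The major fibrillar collagens were low in cord and split between DRG and paw. Col1a1 and Col1a2 encode the chains of type I, the most abundant collagen of skin and nerve sheath. Col1a1 was at 538, 343 and 343 CPM in DRG, 72.2, 46.7 and 145 CPM in cord and 544, 751 and 557 CPM in paw. It was higher than in cord in DRG (2.22 ± 0.40, adjusted p = 0.00156) and in paw (2.81 ± 0.41, adjusted p = 0.000224), with no overlap of libraries. Paw against DRG was not called (0.60 ± 0.39, adjusted p = 0.185), although the lowest paw library lay just above the highest DRG library. With cord 3 left out that comparison passed (0.62, adjusted p = 0.0293). Col1a2 was at 1054, 737 and 730 CPM in DRG, 160, 123 and 368 CPM in cord and 890, 1162 and 929 CPM in paw. Its cord values were the lowest 3 of the 9, and DRG and paw overlapped. Col3a1, whose chains form type III, the partner of type I in distensible tissue, was at 434, 228 and 256 CPM in DRG, 49.3, 38.4 and 115 CPM in cord and 1463, 2043 and 1606 CPM in paw. Every paw library exceeded every DRG library, and every DRG library exceeded every cord library, with fold changes of 2.18 ± 0.44, adjusted p = 0.0025, for DRG against cord and 2.48 ± 0.44, adjusted p = 0.000705, for paw against DRG.

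Type V, a minor fibrillar collagen that starts fibrils and limits their width, has 3 genes with different tissue orders. Col5a1 was at 200, 109 and 136 CPM in DRG, 26.1, 23.2 and 70.8 CPM in cord and 159, 200 and 181 CPM in paw. DRG and paw overlapped and both lay above cord. Col5a2 was at 114, 72.9 and 82.6 CPM in DRG, 17.7, 17.5 and 42.9 CPM in cord and 176, 227 and 200 CPM in paw. It was highest in paw in every library (1.16 ± 0.34, adjusted p = 0.0128, against DRG), a difference that reached only adjusted p = 0.05 without DRG 2. Col5a3 was at 539, 445 and 451 CPM in DRG, 48.1, 41.1 and 115 CPM in cord and 77.3, 112 and 118 CPM in paw. DRG stood 4.66-fold above paw (-2.22 ± 0.39, adjusted p = 0.000716) and 7.03-fold above cord (2.81 ± 0.40, adjusted p = 0.000368), and its lowest DRG library was above every other library. Paw and cord overlapped through cord 3 (0.59 ± 0.37, adjusted p = 0.174), and without that library paw was called higher (1.24, adjusted p = 0.000101).

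The chains of type XI, known from the thin fibrils of cartilage, were highest in cord. Col11a1 was at 44.3, 36.2 and 44.8 CPM in DRG, 71.5, 71.2 and 82.6 CPM in cord and 5.15, 7.41 and 6.83 CPM in paw. Col11a2 was at 8.04, 7.63 and 9.71 CPM in DRG, 61.4, 67.1 and 47 CPM in cord and 3.41, 4.63 and 3.36 CPM in paw. The 3 tissues did not overlap for either gene, in the order cord, DRG, paw. Col11a1 was lower in DRG than in cord by a log2 fold change of -0.85 ± 0.13, adjusted p = 0.000172, and Col11a2 by -2.79 ± 0.17, adjusted p = 7.15e-08. In paw against cord Col11a1 gave -3.54 ± 0.15, adjusted p = 8.75e-10, and Col11a2 -3.95 ± 0.18, adjusted p = 1.85e-09. Col2a1, the chain of type II, the main cartilage collagen, was at 7.91, 4.59 and 6.78 CPM in DRG, 5.35, 5.32 and 5.28 CPM in cord and 1.02, 0.617 and 0.412 CPM in paw. DRG and cord overlapped, and both lay above paw (-3.23 ± 0.31, adjusted p = 1.33e-06, and -2.95 ± 0.31, adjusted p = 3.04e-06). The 9 cartilage and bone markers summed to 46.1 to 59.1 CPM in DRG, 60.7 to 66.0 in cord and 71.7 to 119 in paw, with Matn1 at 0 in DRG and paw and Matn3 and Bglap at 0 in DRG. Comp made up most of the paw sum, at 67.3, 115 and 114 CPM. Acan and Hapln1 made up most of the cord sum, at means of 34.6 and 20.3 CPM, and Comp was at a mean of 1.51 CPM there. In DRG against cord, 2 of the 6 tested markers of this list were higher (Comp and Ibsp), 2 lower (Acan and Dmp1) and 2 not called. Of all tested genes, 29% were higher and 30.6% lower there. Of the same 6 markers, 2 were higher and 4 lower in paw than in DRG (Acan, Hapln1, Ibsp and Dmp1), and 2 were higher and 3 lower in paw than in cord. Of all tested genes, 39.7% were higher and 40.8% lower in paw against DRG, and 39.9% and 41.7% in paw against cord.

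Col24a1 and Col27a1, fibrillar collagens with a shorter or interrupted helix, were highest in DRG. Col24a1 was at 96.8, 47.2 and 94.4 CPM in DRG, 15, 14 and 23.7 CPM in cord and 4.07, 7.47 and 4.89 CPM in paw. Col27a1 was at 56.2, 46.8 and 60 CPM in DRG, 21.9, 21.1 and 36.9 CPM in cord and 19, 20.7 and 16 CPM in paw. In both, every DRG library exceeded the others, with Col24a1 14.5-fold above paw (-3.86 ± 0.37, adjusted p = 1.01e-05) and Col27a1 2.92-fold above paw (-1.55 ± 0.21, adjusted p = 3.85e-05). For Col27a1 the call of paw below cord (-0.51 ± 0.21, adjusted p = 0.0406) was lost in most alternatives, among them without cord 3 (-0.17, adjusted p = 0.273). In all, fibrillar collagens counted 8 higher and 2 lower of 11 in DRG against cord, 2 higher and 6 lower in paw against DRG, and 5 higher and 5 lower in paw against cord. These are 72.7% and 18.2% of the class (29% and 30.6% of all tested genes), 18.2% and 54.5% (39.7% and 40.8%), and 45.5% each way (39.9% and 41.7%), the last near the background.

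Type IV chains divided into a DRG group and a paw group. Col4a1 and Col4a2, the chains of the ubiquitous basement membrane trimer, were both highest in DRG. Col4a1 was at 571, 422 and 441 CPM in DRG, 118, 92.5 and 246 CPM in cord and 178, 189 and 203 CPM in paw. Col4a2 was at 410, 340 and 321 CPM in DRG, 146, 119 and 248 CPM in cord and 145, 168 and 174 CPM in paw. DRG libraries lay above all others for both genes (1.65 ± 0.33, adjusted p = 0.00213, for Col4a1 and 1.06 ± 0.24, adjusted p = 0.00315, for Col4a2 against cord). With DRG 1 and 2 left out, which kept 1 DRG library, Col4a2 was at 0.92 in DRG against cord. In the same run Col4a1 was at -1.22 in paw against DRG (-1.33 ± 0.32, adjusted p = 0.00429 with all libraries). Cord 3 exceeded every paw library for both genes, and neither gene was called between paw and cord (0.32 ± 0.32, adjusted p = 0.37, and -0.07 ± 0.23, adjusted p = 0.784). Without cord 3, paw was called higher for Col4a1 (0.89, adjusted p = 0.00038) and for Col4a2 (0.33, adjusted p = 0.0494). The 7 endothelial and mural markers summed to 263 to 359 CPM in DRG, 225 to 327 in cord and 576 to 647 in paw, and the Schwann and satellite glia markers to 15193 to 20260, 2362 to 6365 and 595 to 712. In DRG against cord, 29% of all tested genes were called higher and 30.6% lower. Of the 7 endothelial and mural markers, 1 was higher, 2 were lower and 4 were not called, and all 7 Schwann and satellite glia markers were higher. None was at 0, and their part in the levels of type IV was not tested.

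Col4a5 and Col4a6, which lie next to each other and whose chains form the type IV trimer of skin basement membrane, had the reverse order of DRG and cord. Col4a5 was at 8.71, 4.59 and 6.59 CPM in DRG, 14.6, 13.2 and 22.2 CPM in cord and 36.6, 34.1 and 27.4 CPM in paw. Col4a6 was at 0.492, 0.29 and 0.693 CPM in DRG, 3.25, 3.13 and 6.03 CPM in cord and 30, 31.9 and 23.7 CPM in paw. Paw was above cord and cord above DRG, without overlap, and the step from DRG to paw was 57.5-fold for Col4a6 (5.84 ± 0.33, adjusted p = 1.58e-08) and 4.92-fold for Col4a5 (2.30 ± 0.25, adjusted p = 8.93e-06). Col4a3 and Col4a4, chains of the kidney type of basement membrane, were at 2.08 to 4.95 and 1.98 to 3.46 CPM in DRG and paw libraries and at 0.933 to 1.21 and 0.28 to 0.804 CPM in cord, where both were called lower. The 6 genes counted 4 higher and 2 lower in DRG against cord, 3 higher and 2 lower in paw against DRG, and 4 higher and none lower in paw against cord. All tested genes gave 29% and 30.6%, 39.7% and 40.8%, and 39.9% and 41.7% in the same order, against 66.7% and 33.3%, 50% and 33.3%, and 66.7% and 0% of these 6.

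Type VI, the beaded microfilament around cells, was highest in paw for its 3 main chains. Col6a1 was at 102, 66.2 and 64.4 CPM in DRG, 37.4, 34.3 and 53.6 CPM in cord and 175, 213 and 208 CPM in paw. Col6a2 was at 83.7, 60.1 and 56.4 CPM in DRG, 20, 14.6 and 29.3 CPM in cord and 103, 139 and 133 CPM in paw. Col6a3 was at 66.4, 29.4 and 54.8 CPM in DRG, 7.4, 7.18 and 20.4 CPM in cord and 76.6, 103 and 107 CPM in paw. The order was paw, DRG, cord in all 3 genes without overlap, but paw against DRG was called for Col6a1 (1.35 ± 0.21, adjusted p = 0.000136) and Col6a2 (0.90 ± 0.24, adjusted p = 0.00642) and not for Col6a3 (0.93 ± 0.44, adjusted p = 0.0827), which passed without cord 3 (0.95, adjusted p = 0.0116). The chains that can take the place of Col6a3 were low everywhere. Col6a5 was at 3.71, 1.5 and 1.49 CPM in DRG, 1.05, 0.933 and 1.49 CPM in cord and 0.239, 0.247 and 0.53 CPM in paw. Paw was lowest in every library, and DRG and cord met at 1.49 CPM. For Col6a5, DRG against cord was not called with all libraries (0.96 ± 0.41, adjusted p = 0.0605). It passed without DRG 2 (1.19, adjusted p = 0.0367) or without DRG 3 (1.18, adjusted p = 0.0388). Col6a6 was at 0.0495 to 0.76 CPM in DRG, 0.467 to 1.21 in cord and 0 to 0.185 in paw, and with all libraries was called only in paw against cord (-2.75 ± 0.91, adjusted p = 0.0159), which did not pass without paw 1 (-2.20, adjusted p = 0.0576). DRG against cord (-1.35 ± 0.72, adjusted p = 0.129) passed without DRG 1 (-3.03, adjusted p = 0.00882). Col6a4 had 8, 10 and 10 reads in DRG, 34, 26 and 5 in cord and 3, 1 and 1 in paw. Of the 5 tested genes, 3 were higher and none lower in DRG against cord, 2 higher and 1 lower in paw against DRG, and 3 higher and 2 lower in paw against cord. The shares were 60% and 0% (29% and 30.6% of all tested genes), 40% and 20% (39.7% and 40.8%), and 60% and 40% (39.9% and 41.7%).

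Among the anchoring and short chain collagens, Col7a1 stood out in paw. It encodes the anchoring fibrils that tie epidermis to dermis, and was at 15.3, 13.4 and 17.4 CPM in DRG, 7.65, 8.96 and 10.2 CPM in cord and 125, 150 and 109 CPM in paw. All paw libraries were above all others, 8.33-fold over DRG (3.06 ± 0.15, adjusted p = 4.02e-09) and 14.4-fold over cord (3.85 ± 0.16, adjusted p = 7.42e-10). The keratinocyte markers summed to 5788 to 6837 CPM in paw and 28.8 to 149 CPM elsewhere, mostly Itga6 there. In paw 5 of the 6 were higher than in DRG, against 39.7% of all tested genes. All 6 were higher than in cord, against 39.9% of all, and their part in this level was not tested. Type VIII, a network collagen of vessels and cornea, had its 2 genes highest in different tissues. Col8a1 was at 22.6, 13.9 and 14.3 CPM in DRG, 4.5, 4.25 and 7.69 CPM in cord and 25.2, 28.1 and 24.1 CPM in paw. Col8a2 was at 35.6, 22.3 and 27.3 CPM in DRG, 13.3, 8.68 and 19.5 CPM in cord and 7.48, 9.87 and 8.3 CPM in paw. Col8a1 was highest in paw, though the call against DRG (0.61 ± 0.23, adjusted p = 0.0304) did not pass without DRG 2 or DRG 3 (0.50, adjusted p = 0.105 and 0.107) or without any of the 3 paw libraries (0.56 to 0.66, adjusted p = 0.0508 to 0.0811). Col8a2 was highest in DRG in every library (1.05 ± 0.27, adjusted p = 0.00671, against cord and -1.73 ± 0.28, adjusted p = 0.000197, for paw against DRG). Its call in paw against cord (-0.69 ± 0.28, adjusted p = 0.044) was lost in most alternatives, among them without cord 3 (-0.32, adjusted p = 0.236). Col10a1, of hypertrophic cartilage, had 10, 18 and 7 reads in DRG, 1, 0 and 1 in cord and 5, 1 and 4 in paw, and it overlaps Nt5dc1 on the opposite strand. The 3 tested genes counted 3 higher in DRG than in cord, 2 higher and 1 lower in paw against DRG, and 2 higher and 1 lower in paw against cord. In all tested genes the shares higher and lower were 29% and 30.6%, 39.7% and 40.8%, and 39.9% and 41.7%.

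The 3 genes of type IX, a FACIT trimer made of 1 chain of each, each had a different highest tissue. Col9a1 was at 0.268, 0.193 and 0.149 CPM in DRG, 1.15, 1.07 and 0.976 CPM in cord and 11.4, 14.5 and 16.2 CPM in paw. Col9a2 was at 29.1, 25.2 and 18.8 CPM in DRG, 13.7, 18.6 and 17 CPM in cord and 0.479, 0.555 and 0.648 CPM in paw. Col9a3 was at 4.42, 3.96 and 4.26 CPM in DRG, 28, 25.9 and 23 CPM in cord and 1.56, 1.36 and 1.65 CPM in paw. Col9a1 rested on 13 reads in DRG, 63 in cord and 700 in paw, and was 66.3-fold higher in paw than in DRG (6.05 ± 0.26, adjusted p = 1.13e-09). Col9a2, with 1553, 968 and 28 reads, was 43-fold lower in paw than in DRG (-5.42 ± 0.25, adjusted p = 1.97e-09). Its small difference between DRG and cord (0.57 ± 0.17, adjusted p = 0.0126) did not pass without DRG 1 (0.43, adjusted p = 0.0659) or without cord 1 (0.46, adjusted p = 0.0527). Col9a3 was 16.8-fold lower in paw than in cord (-4.07 ± 0.15, adjusted p = 3.16e-10) and lower in DRG than in cord (-2.60 ± 0.13, adjusted p = 2.11e-08). No library of any tissue overlapped another tissue in the 3 genes. Col9a3 overlaps Tcfl5 on the opposite strand in the GENCODE annotation, and reads from the overlap cannot be told apart without the strand setting of the counting.

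The other FACIT collagens were spread over the tissues. Col12a1 and Col14a1 sit on type I fibrils. Col12a1 was at 43.3, 31.4 and 38.1 CPM in DRG, 19.3, 16.2 and 26.9 CPM in cord and 66.9, 57.2 and 55 CPM in paw. The tissues did not overlap, with paw highest (0.67 ± 0.18, adjusted p = 0.00457, against DRG). Col14a1 was at 89.9, 46.6 and 72.9 CPM in DRG, 7.45, 5.97 and 27.3 CPM in cord and 23.2, 38.3 and 33.6 CPM in paw. DRG was above cord (2.38 ± 0.59, adjusted p = 0.00955), and cord 3 reached into the paw range. Paw against DRG (-1.14 ± 0.56, adjusted p = 0.0942) and paw against cord (1.24 ± 0.58, adjusted p = 0.0829) were not called with all libraries, and both passed without cord 3 (-1.12, adjusted p = 0.00353, and 2.28, adjusted p = 0.000225). Col16a1 was at 126, 143 and 127 CPM in DRG, 87.2, 91.4 and 84.4 CPM in cord and 71.5, 83.6 and 78.9 CPM in paw. Libraries of a tissue lay close together, and the level was higher in DRG by 0.59 ± 0.09 against cord (adjusted p = 0.000173) and lower in paw than in DRG (-0.76 ± 0.09, adjusted p = 1.04e-05). Col19a1, a collagen that some central neurons make, was at 3.66, 5.45 and 4.41 CPM in DRG, 12.6, 13.3 and 12.4 CPM in cord and 1.26, 1.67 and 1.41 CPM in paw. Cord was above both other tissues in every library (-1.50 ± 0.17, adjusted p = 1.48e-05, for DRG against cord and -3.14 ± 0.20, adjusted p = 2.71e-08, for paw against cord). Col20a1 was at 4.07, 3.62 and 3.37 CPM in DRG, 3.05, 2.33 and 4.25 CPM in cord and 9.1, 14.5 and 11.4 CPM in paw. Col22a1, found at junctions such as that of muscle and tendon, was at 1.52, 1.06 and 0.792 CPM in DRG, 5, 4.15 and 5.22 CPM in cord and 5.51, 13.5 and 11.6 CPM in paw. Both were highest in paw, though paw 1 was close to the cord range for Col22a1. The 5 tendon markers summed to 320, 510 and 445 CPM in paw 1 to 3 and 63.8 to 124 elsewhere, with Thbs4 and Fmod making up most of the paw sum. Of the 5, 3 were higher and 2 lower (Scx and Mkx) in paw than in DRG, against 39.7% and 40.8% of all tested genes. In paw against cord 3 were higher and 1 lower (Mkx), against 39.9% and 41.7% of all. The 6 muscle markers summed to 13312 to 17005 in paw and 14.0 to 943 elsewhere. All 6 were called higher in paw in both comparisons, against 39.7% and 39.9% of all tested genes. None of these markers was at 0 in a tissue, and their part was not tested. The 9 FACIT genes counted 4 higher and 4 lower in DRG against cord, 4 and 4 in paw against DRG, and 4 higher and 3 lower in paw against cord. The 44.4% each way in DRG against cord compares with 29% and 30.6% of all tested genes, that in paw against DRG is near the 39.7% and 40.8% of all, and the 44.4% and 33.3% in paw against cord compare with 39.9% and 41.7%.

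Membrane collagens, which cross the cell membrane, held the largest tissue difference of all collagen genes. Col17a1, the hemidesmosome collagen of basal keratinocytes, was at 0.804, 0.869 and 0.644 CPM in DRG, 0.4, 0.42 and 0.23 CPM in cord and 703, 668 and 614 CPM in paw. Its level in paw was 848-fold that in DRG (9.73 ± 0.16, adjusted p = 5.01e-12) and 1820-fold that in cord (10.83 ± 0.18, adjusted p = 5.61e-12), with 33003 reads in paw, 49 in DRG and 21 in cord. DRG lay above cord (1.11 ± 0.26, adjusted p = 0.00465). In that comparison 29% of all tested genes were called higher and 30.6% lower. Of the 6 keratinocyte markers 1 was called higher in DRG (Itga6, at 147, 54.7 and 120 CPM against 20.3, 19.3 and 42.3 in cord), 2 were lower (Trp63 and Dsc3) and 3 were not called (Krt5, Krt14 and Dsg3). Their part in the Col17a1 level was not tested. The log2 fold change of Col17a1 in DRG against cord was 0.85 with DRG 1 and 2 left out and 0.89 with cord 1 and 3 left out, runs that kept 1 library of that tissue. Col23a1 was lowest in paw, at 225, 136 and 183 CPM in DRG, 75.3, 57.1 and 125 CPM in cord and 17.9, 20.8 and 22.3 CPM in paw. DRG was above cord (1.08 ± 0.28, adjusted p = 0.00902) and cord above paw (-2.07 ± 0.30, adjusted p = 0.000143) in every library. Col13a1, a collagen of the neuromuscular junction, was at 0.536, 0.869 and 1.24 CPM in DRG, 1.6, 1.68 and 1.49 CPM in cord and 5.81, 7.65 and 6.13 CPM in paw. Paw was highest, and the call of DRG below cord (-0.86 ± 0.29, adjusted p = 0.0249) did not pass without DRG 1, DRG 2, cord 1 or cord 2 (-0.59 to -0.85, adjusted p = 0.0541 to 0.095). Col25a1, a collagen of neurons, was at 0.0965 to 0.396 CPM in DRG, 0 to 0.55 in cord and 0.778 to 0.942 in paw, and with all libraries was not called in any comparison. Paw against DRG (1.58 ± 0.69, adjusted p = 0.0537) passed with upper quartile or total-read scaling, a replicate block, a fit of 2 tissues, and without cord 1 or cord 2 (adjusted p = 0.00631 to 0.0469). Paw against cord (1.31 ± 0.68, adjusted p = 0.0963) passed with limma-voom (2.26, adjusted p = 0.0444). The class counted 2 higher and 1 lower of 4 in DRG against cord, and 2 higher and 1 lower in each paw comparison. That is 50% and 25% in each, where all tested genes had 29% and 30.6% in DRG against cord, 39.7% and 40.8% in paw against DRG, and 39.9% and 41.7% in paw against cord.

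The multiplexins of basement membranes, Col15a1 and Col18a1, differed in their order. Col15a1 was at 234, 141 and 161 CPM in DRG, 39, 32.5 and 78.6 CPM in cord and 47.2, 54 and 54.2 CPM in paw. Col18a1, whose end is released as endostatin, was at 69.5, 57.1 and 64.6 CPM in DRG, 30.3, 26.9 and 40.2 CPM in cord and 116, 116 and 115 CPM in paw. Col15a1 was highest in DRG (1.84 ± 0.33, adjusted p = 0.00138, against cord and -1.78 ± 0.33, adjusted p = 0.000958, for paw against DRG), and paw and cord overlapped. Without cord 3, paw was called above cord for Col15a1 (0.57, adjusted p = 0.0267). Col18a1 was highest in paw in every library (0.86 ± 0.14, adjusted p = 0.000105, against DRG), with DRG above cord (0.98 ± 0.14, adjusted p = 9.01e-05). Col28a1, a collagen known from peripheral nerve, was at 114, 80 and 111 CPM in DRG, 2.75, 3.17 and 10.7 CPM in cord and 17.7, 19.4 and 16.5 CPM in paw. It had the largest DRG excess over cord among the tested collagen genes, 18.8-fold (4.23 ± 0.47, adjusted p = 1e-04), and was 5.69-fold lower in paw than in DRG (-2.51 ± 0.42, adjusted p = 0.000653). Cord 3 was the highest cord library for Col28a1, as it was for 31 of the 41 tested collagen genes. It was also highest for the Schwann and satellite glia, fibroblast, meninges, and endothelial and mural marker sums. The part of these cells in the Col28a1 level was not tested.

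Ratios between chains of a type, or between genes of 1 class, were compared across tissues, where gene length cancels. Of 16 listed ratios, 11 had at least 10 reads of both genes in every library. All 11 differed among tissues in an exact permutation test over the 9 libraries, with adjusted p from 0.00655 to 0.0214 over the 11 ratios and a smallest possible p of 0.00357. Several ratios share a gene and are not independent. The ratio Col3a1/Col1a1 was 0.807, 0.663 and 0.746 in DRG, 0.682, 0.822 and 0.798 in cord and 2.69, 2.72 and 2.88 in paw (adjusted p = 0.0214, exact permutation test), so DRG and cord overlapped and paw stood apart. Col1a2/Col1a1, the chains of the same trimer, moved far less, with 1.96 to 2.15 in DRG, 2.22 to 2.64 in cord and 1.55 to 1.67 in paw (adjusted p = 0.00655, exact permutation test). Col5a3/Col5a1 was 2.7, 4.08 and 3.32 in DRG, 1.84, 1.77 and 1.63 in cord and 0.485, 0.561 and 0.654 in paw (adjusted p = 0.00655, exact permutation test), without overlap. Col8a2/Col8a1 was 1.57 to 1.91 in DRG, 2.04 to 2.96 in cord and 0.297 to 0.351 in paw, and Col18a1/Col15a1 was 0.297 to 0.406, 0.512 to 0.826 and 2.12 to 2.45 in the same tissues (adjusted p = 0.00655 for both, exact permutation test). Both ratios separated all 3 tissues. Col4a2/Col4a1 was 0.719 to 0.807 in DRG, 1.01 to 1.29 in cord and 0.815 to 0.888 in paw (adjusted p = 0.00655, exact permutation test). These genes overlap on opposite strands, and reads from the overlap cannot be told apart without the strand setting. Col4a5/Col4a1 was 0.0109 to 0.0153 in DRG, 0.0904 to 0.142 in cord and 0.135 to 0.206 in paw, with cord and paw overlapping (adjusted p = 0.0112, exact permutation test). Col11a2/Col11a1 was 0.181 to 0.217 in DRG, 0.569 to 0.942 in cord and 0.491 to 0.663 in paw (adjusted p = 0.0118, exact permutation test). Col5a2/Col5a1 was 0.569 to 0.668 in DRG, 0.607 to 0.755 in cord and 1.1 to 1.13 in paw, Col6a2/Col6a1 was 0.818 to 0.908, 0.424 to 0.547 and 0.589 to 0.653, and Col6a3/Col6a1 was 0.445 to 0.85, 0.198 to 0.382 and 0.438 to 0.516 in the same tissues (adjusted p = 0.0118, 0.00655 and 0.0118, exact permutation test). The last of these did not pass without DRG 1, DRG 3 or any paw library (adjusted p = 0.05 to 0.0571, exact permutation test). In the untested ratio Col9a2/Col9a1 the values were 109, 131 and 126 in DRG, 11.9, 17.3 and 17.4 in cord and 0.0421, 0.0383 and 0.04 in paw. Col4a6/Col4a5, also untested, was 0.0564 to 0.105 in DRG, 0.223 to 0.271 in cord and 0.819 to 0.937 in paw.

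**Figure D5:**
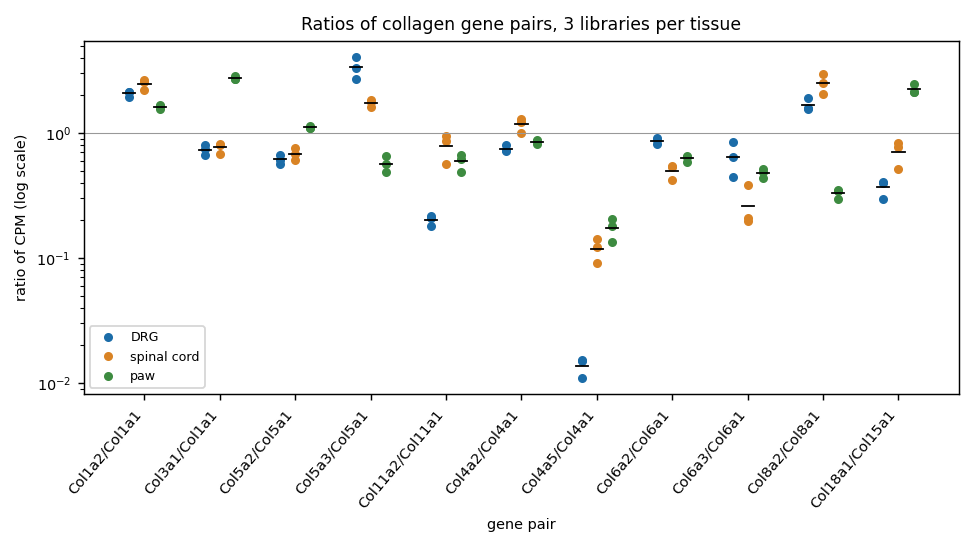
Ratios of CPM between 2 collagen genes for the 11 tested ratios, on a log axis. Points are libraries, coloured by tissue, and bars are means. Col3a1/Col1a1 lies above 1 in paw and below 1 in every DRG and cord library, and Col4a5/Col4a1 is lowest in DRG, at 0.0109 to 0.0153.

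Levels per kilobase of exon allow genes to be compared within a tissue, with the caution that the lengths come from GENCODE M21 gene models on GRCm38 and not from the models used for counting. In DRG, Col1a2 led at 157 ± 34.6 CPM per kb, followed by Col5a3 at 78.2 ± 8.62, Col4a1 at 72.2 ± 12.3 and Col1a1 at 68.8 ± 19 CPM per kb (SD, n = 3). The last 3 did not differ beyond their spread. In cord, Col1a2 led at 40.7 ± 24.7 CPM per kb, followed by Col4a2 at 26.5 ± 10.5 and Col4a1 at 23 ± 12.4, all within their spread, and Col16a1 at 16.8 ± 0.678 CPM per kb. In paw, Col3a1 led at 306 ± 54.3 CPM per kb, followed by Col1a2 at 186 ± 27.5, Col17a1 at 118 ± 7.97 and Col1a1 at 104 ± 19.6, the last 2 within their spread. Col5a3 ranked 2 of 43 in DRG, 8 in cord and 12 in paw on this scale, and Col17a1 ranked 37, 40 and 3.

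Genes that make, cut, cross-link, bind and degrade collagen were described from 4 further lists. Folding and modification enzymes counted 11 higher and 3 lower of 18 tested in DRG against cord, 5 and 10 in paw against DRG, and 8 and 8 in paw against cord. Of all tested genes, 29% were higher and 30.6% lower in the first comparison, 39.7% and 40.8% in the next and 39.9% and 41.7% in the last, so the 44.4% of the list in each direction of paw against cord was near the background. Glt25d2 (now Colgalt2), which adds galactose to collagen hydroxylysine, was at 56.8 ± 4.03 CPM in DRG, 10.3 ± 0.786 in cord and 5.33 ± 0.207 in paw (2.46 ± 0.10, adjusted p = 4.52e-09, and -3.41 ± 0.11, adjusted p = 1.1e-10, for paw against DRG). P4ha3, a prolyl 4-hydroxylase subunit, was at 23.4 ± 2.02, 14.3 ± 0.642 and 2.2 ± 0.375 CPM in the same order (-3.40 ± 0.15, adjusted p = 1.33e-09, for paw against DRG). Leprel4, a partner of prolyl 3-hydroxylase, had its highest level in paw, at 51.5 ± 3.04 CPM against 9.59 ± 0.513 in DRG and 19.1 ± 1.6 in cord (2.42 ± 0.10, adjusted p = 1.12e-09, against DRG). Leprel2, another member of that enzyme family, was highest in cord, where it reached 42.3 ± 2.51 CPM, with 16.6 ± 1.81 in DRG and 13.3 ± 1.92 in paw, and Leprel1 was lowest there, at 3.2 ± 1.4 against 15.7 ± 4.06 and 12.3 ± 1.06 CPM. Serpinh1, the collagen chaperone HSP47, was at 169 ± 45.4 CPM in DRG, 65.9 ± 27.2 in cord and 117 ± 12.3 in paw, called higher in DRG than in cord (1.36 ± 0.29, adjusted p = 0.00353) and not called between paw and DRG (-0.52 ± 0.29, adjusted p = 0.124). P4hb was the most expressed gene of the list not called in DRG against cord (0.16 ± 0.09, adjusted p = 0.15), as Glt25d1 was in paw against cord (0.14 ± 0.08, adjusted p = 0.14).

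Processing and cross-linking enzymes counted 8 higher and 1 lower of 13 in DRG against cord, 6 and 4 in paw against DRG, and 9 and 2 in paw against cord. These are 61.5% higher and 7.69% lower (29% and 30.6% of all genes), 46.2% and 30.8% (39.7% and 40.8%), and 69.2% and 15.4% (39.9% and 41.7%). Lox, lysyl oxidase, was at 94.8 ± 26.5 CPM in DRG, 8.59 ± 7.82 in cord and 54.8 ± 7.41 in paw. DRG exceeded cord (3.49 ± 0.58, adjusted p = 0.00135) and not called between paw and DRG (-0.79 ± 0.51, adjusted p = 0.191). Loxl1 and Loxl2 stood highest in paw, at 36.9 ± 7.89 and 70.7 ± 10.6 CPM, with 2.85 ± 0.19, adjusted p = 6.48e-08, and 2.38 ± 0.29, adjusted p = 3.84e-05, against DRG. Loxl4 was lowest in cord (2.36 ± 0.27, adjusted p = 1.98e-05, for DRG against cord), as was Adamts14, which removes the amino-terminal propeptide (2.34 ± 0.22, adjusted p = 3.12e-06, and 3.57 ± 0.22, adjusted p = 2.06e-08, for paw against cord). Adamts3, of the same protease family, was lower in paw than in DRG (-2.01 ± 0.20, adjusted p = 1.89e-06). Uncalled members with the highest levels were Bmp1 in DRG against cord (-0.26 ± 0.12, adjusted p = 0.074), Pcolce in paw against DRG (0.28 ± 0.29, adjusted p = 0.394) and Loxl3 in paw against cord (0.29 ± 0.17, adjusted p = 0.133).

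Collagen receptors counted 6 higher and 3 lower of 10 in DRG against cord, 5 and 2 in paw against DRG, and 6 and 3 in paw against cord. The 60% higher in DRG against cord compares with 29% of all genes, and the 30% lower with 30.6%. For paw against DRG, 50% and 20% compare with 39.7% and 40.8%, and for paw against cord 60% and 30% with 39.9% and 41.7%. Itga2, the alpha 2 integrin chain, was at 0.87 ± 0.232 CPM in DRG, 0.184 ± 0.243 in cord and 5.8 ± 1.12 in paw (2.30 ± 0.65, adjusted p = 0.00975, and 2.73 ± 0.43, adjusted p = 9.97e-05, for paw against DRG). Ddr2, a receptor kinase for fibrillar collagen, was at 27.8 ± 6.44, 10.1 ± 4.65 and 97.5 ± 15.4 CPM (1.81 ± 0.29, adjusted p = 0.000275, for paw against DRG), and Itga1 at 3.71 ± 1.11, 3.98 ± 0.77 and 18.1 ± 0.489 CPM (2.28 ± 0.22, adjusted p = 1.22e-06). Itgb1, the shared beta chain, was at 432 ± 39.4, 132 ± 30.7 and 336 ± 20.5 CPM (1.71 ± 0.15, adjusted p = 2.05e-06, for DRG against cord), and Itga11 was also higher in DRG than in cord (1.92 ± 0.22, adjusted p = 1.88e-05). Itga1 was not called in DRG against cord (-0.09 ± 0.23, adjusted p = 0.749), and Itga10 in neither paw comparison (0.37 ± 0.31, adjusted p = 0.289, and -0.47 ± 0.30, adjusted p = 0.174).

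Degrading enzymes counted 3 higher and 1 lower of 6 in DRG against cord, and 4 higher and 2 lower in each paw comparison. Of all genes, 29% were higher and 30.6% lower in DRG against cord, 39.7% and 40.8% in paw against DRG, and 39.9% and 41.7% in paw against cord. Mmp2, a gelatinase of fibroblasts, was at 62.8 ± 19.5 CPM in DRG, 10.8 ± 4.11 in cord and 223 ± 15.7 in paw (2.55 ± 0.28, adjusted p = 4.59e-05, and 4.38 ± 0.30, adjusted p = 5.07e-07, for paw against cord). Ctsk, cathepsin K, was at 8.95 ± 1.38, 7.03 ± 0.281 and 52.1 ± 4.99 CPM (2.54 ± 0.13, adjusted p = 5.18e-09, for paw against DRG), and Mmp14 was higher in DRG than in cord (0.67 ± 0.11, adjusted p = 0.000248). The members lower in paw were Mmp8 and Mmp9, both known from neutrophil granules, with -5.50 ± 0.93, adjusted p = 0.000638, and -3.60 ± 0.47, adjusted p = 8.76e-05, against DRG. Mmp9 was lower in DRG than in cord (-1.29 ± 0.36, adjusted p = 0.0129), and Mmp8 was not called there (-0.71 ± 0.56, adjusted p = 0.308). Marrow markers summed to 51.8 to 145 CPM in DRG, 71.6 to 367 in cord and 2.06 to 2.81 in paw, none at 0. None of these 6 markers was called in DRG against cord, 4 were lower in paw than in DRG and 6 lower in paw than in cord, and their part was not tested.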

How the data were processed

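RNA from 9 samples, 3 per tissue, was made into libraries from 500 ng of total RNA by oligo-dT selection with a stranded dUTP kit and read as 50 bp single ends, per the labels' protocols. The submitters' processing notes name bcl2fastq, TopHat2, HTSeq and mm9. Versions, gene models and the strand setting are not given in the sources used. The authors deposited unnormalized read counts for each gene symbol. The 5 summary rows of unassigned reads were left out. They held 42.9 to 43.3% of the reads of each DRG library, 46.2 to 47.7% in cord and 58.1 to 59.3% in paw. Reads aligned to more than 1 place were 31.9 to 32.8%, 33.1 to 35.5% and 46.9 to 47.6% in the same order. The effect of this difference on the paw comparisons was not tested. Precision follows the 15537545 to 23229724 gene reads per library, and floors cover counting error only. Samples were grouped by tissue. Counts of all 9 libraries were fitted with edgeR 4.0.16 in R 4.3.3 (filterByExpr by tissue, TMM, robust glmQLFit, glmQLFTest, Benjamini-Hochberg adjustment over 16091 genes), with 6 residual degrees of freedom. Standard errors were obtained by dividing the fold change by the square root of F. Alternatives were RLE, upper quartile and total-read scaling, no filter, DESeq2 1.42.0, limma-voom (limma 3.58.1), a replicate block, fits of 2 tissues and each library left out. Leaving out DRG 1 and 2, or cord 1 and 3, was added after seeing the data and kept 1 library of that tissue. Functions were tested on simulated data.

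Collagen genes and lists were chosen with earlier results of these data known. Every collagen gene is named, with values per library for those at 10 CPM or more in a tissue or called above paw in DRG or spinal cord at 1 CPM or more. From the other lists, the 3 called genes with the largest fold per comparison and the most expressed uncalled gene are named. Of those lists, Mia3 and Gp6 were not tested. Coordinates and promoters are RefSeq's on GRCm38.p6, and none was carried over from mm9.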

Additional observations from a re-analysis of the deposited data

How the results depend on the processing

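The counts of collagen genes called stayed within 1.5 times their values in every alternative run. Leaving out 1 library at a time gave 26 to 28 genes higher and 8 to 10 lower in DRG against cord, 14 to 18 higher and 17 to 19 lower in paw against DRG, 22 to 27 higher and 10 to 12 lower in paw against cord, and 10 to 12 differing chain ratios. Of 2334 fold changes of single genes over all alternatives, 2237 kept direction and call, 51 lost the call, 33 gained one and 13 changed sign. Sign changes concerned 4 genes, each in a comparison that was not called with all libraries. Col25a1 in DRG against cord (-0.27) was 0.54 with limma-voom, 0.20 without DRG 1 and 2, 5.49 without cord 1 and 3 (cord 2 had 0 reads) and -0.90 to 0.26 without 1 library. Col6a6 in paw against DRG (-1.40) was 1.17 without DRG 1 and 2 and -1.88 to 0.28 without 1 library. Col4a2 in paw against cord (-0.07) was 0.002 with upper quartile scaling, 0.47 without cord 1 and 3 and -0.26 to 0.33 without 1 library. Col15a1 in paw against cord (0.05) was -0.17 to 0.57 without 1 library. The cause was not tested. Upper quartile and total-read scaling moved the median of all genes in paw against DRG by 0.119 and 0.112. Whether same-numbered libraries of different tissues came from the same mouse is not stated in the labels. Such libraries correlated at -0.18 to 0.34 in their deviations, over 0.1 in 2 of 9 pairs. Of the 9 libraries, 3 correlated best with their own number. With 3 libraries per tissue that differ in tissue make-up, these correlations cannot show whether the numbers pair the samples. A replicate block gave 27 higher and 9 lower in DRG against cord, 17 and 17 in paw against DRG, and 22 and 10 in paw against cord. Depth limits Col6a4, Col6a6, Col10a1 and Col25a1, with under 100 reads in every tissue, and Col9a1, Col4a6 and Col17a1 in DRG, with 13, 31 and 49 reads. It also limits Col17a1 and Col4a4 in cord, with 21 and 28 reads, and Col6a5, Col9a2 and Col2a1 in paw, with 17, 28 and 34 reads.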

Other observations

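Some genes that encode collagen chains or collagen-like tails have other symbols and lie outside the naming rule. Emid2, the older symbol of Col26a1, stood at 18.0, 13.6 and 15.0 CPM in DRG, 7.75, 10.9 and 11.0 CPM in cord and 0.299, 0.247 and 0.766 CPM in paw. DRG was above cord (0.65 ± 0.21, adjusted p = 0.0205 in edgeR) and both were far above paw (-5.12 ± 0.31, and -4.47 ± 0.32, for paw against DRG and cord), with no overlap of libraries. Colq, whose collagen tail anchors acetylcholinesterase at the neuromuscular junction, was at 4.2 to 5.7 CPM in DRG, 3.4 to 5.74 in cord and 3.89 to 6.66 in paw, and was not called in any comparison.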
